A study of Rattus norvegicus with 6 samples.

Results

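Promoters of genes for translation, RNA processing and other housekeeping functions were examined among the REST-bound sites of HCN cells, which are neural stem cells from the adult rat hippocampus kept as a cultured line. A site was included when its centre lay within 1 kb of an annotated transcription start site (TSS) and the name of the nearest gene began with 1 of 19 prefixes, which cover ribosomal proteins (Rps, Rpl, Mrps, Mrpl), translation factors (Eif, Eef), nucleolar proteins (Npm, Nop), RNA polymerase subunits (Polr), RNA helicases (Ddx), splicing and RNA-binding proteins (Hnrnp, Srsf, Snrp, Sf3), the proteasome (Psm), the mitochondrial energy chain (Nduf, Cox, Atp5) and ubiquitin activation (Uba). In iQNP cells, 22 of 1775 sites met the rule, each at a different gene. In TAP cells, 0 of 778 sites met it, although 117 TAP sites lay within 1 kb of a TSS. The 22 iQNP sites were spread over 12 chromosomes and were part of the 344 that lay within 1 kb of a TSS in iQNP.

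Cells in TAP conditions were kept proliferating with FGF2, and cells in iQNP conditions were made quiescent with FGF2 plus BMP4. REST was precipitated in each condition with a commercial antibody in 1 library and with 2 homemade antibodies, REST14 and REST17, combined in another, and 1 input library per condition served as the background. Each library is a single run, so the spread between the 2 values of a site mixes antibody and chance, and whether the libraries came from separate cultures is not stated. No gene expression was analysed here, and the identity of the cells was therefore not checked against markers. In units of 1000000 tags, the libraries held between 25.2 and 29.8.

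REST is a zinc finger repressor that binds a bipartite element known as RE1 and is best known for keeping neuronal genes silent outside neurons. Ribosomal proteins are needed in near equal amounts in every growing cell, and their promoters are short, rich in CpG dinucleotides and active in nearly all cell types. Nucleolar, splicing and proteasome genes share this broad activity and often have the same kind of promoter.

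Letters were read in promoter sequences of the member genes, and not under the sites themselves. The palindrome CTCGCGAG, the core of a promoter element named GFX in the HOMER motif collection, occurred in the promoters of 15 of the 21 member genes with a RefSeq promoter sequence. It was also in 52 of 177 promoters of other iQNP sites within 1 kb that had no TAP site (29.4%). Over all protein-coding promoters it was in 218 of 18999 (1.15%). Stretches of the 125 bases before the TSS are given for 10 of the 15 member genes and for Nop14 and Rps3a, whose promoters lacked the exact letters. All come from RefSeq, build GRCr8, and read 5′ to 3′ toward the start of the gene. Capitals mark CTCGCGAG.

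Rps28 (chr7:15311334-15311458, minus strand): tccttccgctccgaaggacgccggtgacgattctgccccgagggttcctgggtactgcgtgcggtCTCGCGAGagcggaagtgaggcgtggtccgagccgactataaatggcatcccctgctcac
Rps19 (chr1:89608563-89608687, plus strand): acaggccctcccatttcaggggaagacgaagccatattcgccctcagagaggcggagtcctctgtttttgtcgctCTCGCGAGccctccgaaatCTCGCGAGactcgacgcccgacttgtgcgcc
Rps6 (chr5:106420541-106420665, minus strand): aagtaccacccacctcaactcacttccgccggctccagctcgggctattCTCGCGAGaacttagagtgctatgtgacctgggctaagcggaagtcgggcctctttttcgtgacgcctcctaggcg
Rps7 (chr6:50999446-50999570, minus strand): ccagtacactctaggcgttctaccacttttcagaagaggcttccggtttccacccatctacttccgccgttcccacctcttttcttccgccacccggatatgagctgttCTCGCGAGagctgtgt
Rpl26 (chr10:54109567-54109691, plus strand): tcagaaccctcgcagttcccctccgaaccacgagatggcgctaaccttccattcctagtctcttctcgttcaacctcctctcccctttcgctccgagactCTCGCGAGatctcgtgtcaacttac
Rpl10a (chr20:6390408-6390532, plus strand): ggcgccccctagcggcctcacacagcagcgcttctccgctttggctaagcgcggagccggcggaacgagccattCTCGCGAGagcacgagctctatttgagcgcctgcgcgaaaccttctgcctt
Npm1 (chr10:18255742-18255866, minus strand): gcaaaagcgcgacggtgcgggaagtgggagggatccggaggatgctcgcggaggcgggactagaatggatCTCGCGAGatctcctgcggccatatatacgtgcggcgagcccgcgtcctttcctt
Psmd5 (chr3:38548491-38548615, minus strand): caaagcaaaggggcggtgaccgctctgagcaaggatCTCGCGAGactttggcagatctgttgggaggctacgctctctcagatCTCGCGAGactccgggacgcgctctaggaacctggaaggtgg
Psmb2 (chr5:144254933-144255057, plus strand): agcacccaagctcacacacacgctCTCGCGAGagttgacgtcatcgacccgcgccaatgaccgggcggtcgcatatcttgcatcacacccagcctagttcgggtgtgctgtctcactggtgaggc
Atp5f1 (chr2:196123738-196123862, minus strand): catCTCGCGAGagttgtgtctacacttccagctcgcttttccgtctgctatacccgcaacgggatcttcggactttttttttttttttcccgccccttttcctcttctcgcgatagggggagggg
Nop14 (chr14:80305787-80305911, plus strand): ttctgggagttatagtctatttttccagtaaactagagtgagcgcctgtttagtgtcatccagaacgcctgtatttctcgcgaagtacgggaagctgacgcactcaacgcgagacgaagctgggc
Rps3a (chr2:173827043-173827167, minus strand): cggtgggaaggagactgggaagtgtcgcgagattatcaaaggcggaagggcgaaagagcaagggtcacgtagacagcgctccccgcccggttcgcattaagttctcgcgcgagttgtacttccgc

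In these stretches, Psmd5 and Rps19 carried the palindrome at 2 places. Atp5f1 also had 2 matches, 1 of them downstream of its start and not shown. Nop14 and Rps3a carried runs that resemble the palindrome without matching all of its letters.

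The cytosolic small ribosomal subunit was the largest group, with sites at 6 of the 31 genes that RefSeq lists for it by the plain Rps symbols (19.4%, exact 95% interval from 7.45 to 37.5). The values that follow are tags normalized to 10000000 per library, as the authors deposited them. Rps28, a small protein of the subunit head, had the most tags of the group, with 33.7 for the commercial and 34.9 for the homemade antibodies. Rps19, whose loss of function causes Diamond-Blackfan anaemia, had 24.1 and 29.5. Both stood above the median of 17.9 over all iQNP sites with either antibody.

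Rps6, the subunit protein phosphorylated by S6 kinases in growing cells, had 8.16 normalized tags in the commercial and 12.4 in the homemade library. Its site lay at chr5:106168511-106168577 of rn4, 72 bp upstream of the TSS, and rested on 23 tags (exact Poisson 95% interval from 14.6 to 34.5) and 37 tags (26.1 to 51.0). The fold over input at Rps6 was 4.87 and 5.30. Both antibodies thus placed this site in the lower part of the iQNP sites, in tags and in fold.

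Rps3a and Rps7, which are further proteins of the small subunit, were also below the median of all sites with either antibody. Rps3a had 12.4 normalized tags in the commercial and 11.1 in the homemade library, and Rps7 had 9.93 and 8.73.

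The cytosolic large subunit had sites at 4 of 46 genes (8.70%, 2.42 to 20.8). Rpl26 had 19.2 normalized tags in the commercial and 22.8 in the homemade library. Rpl10a had 17.4 and 16.8. These 2 genes lay on either side of the median of all iQNP sites when the antibodies were averaged, with means of 21 and 17.1.

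Rpl27a and Rpl4 were near the floor of the peak tables. Rpl27a had 6.03 normalized tags in the commercial and 5.37 in the homemade library, at chr1:167115296-167115383 of rn4 and 49 bp upstream of the TSS. It rested on 17 tags (9.90 to 27.2) and 16 tags (9.15 to 25.98), and its fold over input was 4.50 and 4.01. The lowest fold at any of the 1775 sites was also 4.01, so Rpl27a sat at the limit of what was listed.

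Rpl4, a large subunit protein that reaches into the exit tunnel for the nascent chain, had the fewest tags of the 22 sites. It had 4.61 normalized tags in the commercial and 5.04 in the homemade library, from 13 tags (6.92 to 22.2) and 15 tags (8.40 to 24.7), at chr8:68366709-68366803 of rn4. The fold over input was 4.59 and 5.01, the site lay 46 bp upstream of the TSS, and it ranked 1772 of the 1775 iQNP sites by mean normalized tags.

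**Figure D1:**
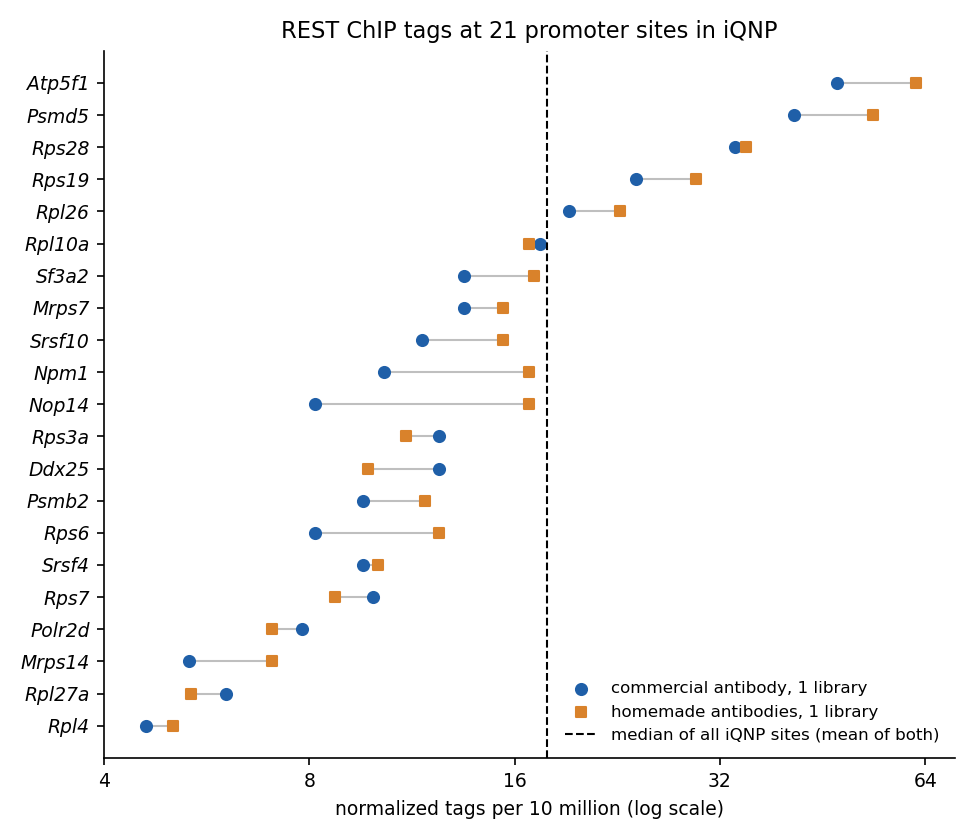
Normalized tags (per 10000000 tags, log scale) at 21 of the 22 sites in iQNP cells, with 1 point per antibody and library and genes ordered by the mean of both. Values run from 4.61 at Rpl4 to 62.1 at Atp5f1, and most sites lie left of the dashed line, the median of 17.9 over all iQNP sites.

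Genes of the mitochondrial ribosome, which translates the proteins encoded by mitochondrial DNA, had 2 sites. Mrps7 had 13.5 normalized tags in the commercial and 15.4 in the homemade library, and Mrps14 had 5.32 and 7.05. Another gene of this kind, Mrpl57, was annotated under its older name Mrp63 and so fell outside the name rule. Its site lay 69 bp upstream of the TSS with 5.32 and 15.8 normalized tags, and it was found after the values were seen.

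The nucleolus was represented by Npm1 and Nop14. Npm1 encodes nucleophosmin, an abundant nucleolar chaperone that acts in ribosome assembly. Its site, at chr10:18062729-18062795 of rn4 and 48 bp upstream of the TSS, had 10.3 normalized tags in the commercial and 16.8 in the homemade library. The tags behind these values were 29 (19.4 to 41.6) and 50 (37.1 to 65.9), with a fold over input of 6.14 and 10.0.

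Nop14, a factor in the processing of small subunit ribosomal RNA, had 8.16 and 16.8 normalized tags. Its fold over input was 24.4 and 50.1, far above the other members with like tags. The input tags at Nop14, scaled to each ChIP library, were 0.9 and 1, the fewest of any member, and their part in the fold was not tested. The annotation label of this site named a start of Grk4, a kinase of G protein-coupled receptors, next to that of Nop14.

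Splicing genes had 3 sites. Sf3a2, a component of the U2 snRNP, had 13.5 normalized tags in the commercial and 17.1 in the homemade library, and its centre lay 200 bp downstream of its TSS. Srsf10 had 11.7 and 15.4 and Srsf4 had 9.58 and 10.1, both encoding serine- and arginine-rich splicing factors. By the mean of both antibodies, all 3 fell short of the median of 17.9 over the iQNP sites.

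The proteasome had 2 sites of unequal strength. Psmd5, a chaperone that helps assemble the base of the regulatory particle, had 41.1 normalized tags in the commercial and 53.7 in the homemade library. It lay at chr3:13879143-13879199 of rn4, 44 bp upstream of the TSS, with 118 tags (97.7 to 141) and 160 tags (136 to 187) and a fold over input of 31.2 and 40.1. Psmb2, a subunit of the catalytic core, had 9.58 and 11.8 normalized tags.

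The strongest of all the sites was at Atp5f1, which encodes the b subunit of mitochondrial ATP synthase. It had 47.5 normalized tags in the commercial and 62.1 in the homemade library, from 136 tags (114 to 161) and 185 tags (159 to 214), and a fold over input of 36 and 46.4. The centre of the site, at chr2:201206638-201206693 of rn4, coincided with the TSS of Atp5f1. The annotation label placed the same site at a start of Wdr77, a subunit of the arginine methylation complex, so that the signal cannot be assigned to 1 of the 2 genes.

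Rps28, next in tags after Atp5f1 and Psmd5, had 95 tags (76.9 to 116) and 104 tags (85.0 to 126) at chr7:16321099-16321170 of rn4, 47 bp upstream of its TSS, with a fold over input of 14.4 and 17.4. This site was labelled as a start of Ndufa7, which encodes a subunit of respiratory complex I. The label at Sf3a2 named Plekhj1. In all, 4 of the 22 sites carried a label for a gene other than the one whose start was nearest.

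The last 2 members had single sites in their groups. Polr2d, a subunit of RNA polymerase II, had 7.80 normalized tags in the commercial and 7.05 in the homemade library. Ddx25, an RNA helicase known from male germ cells, had 12.4 and 9.74. Ddx25 was the member farthest from its start, at 657 bp upstream, and the next farthest were Mrps7 at 234 bp and Srsf4 at 222 bp upstream.

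Several prefixes had no site within 1 kb. Neither translation factors (Eif, 0 of 60 protein-coding genes, and Eef, 0 of 16) nor the Hnrnp (0 of 22), Snrp (0 of 17), Nduf (0 of 56), Cox (0 of 30) and Uba (0 of 20) genes had one by their own nearest start. With 3 counts as the floor, 0 of 60 allows a share of up to 5% and 0 of 16 a share of up to 18.8%. The nearest sites past the limit were at Eif5, a translation initiation factor, at 1415 bp upstream with 24.1 and 28.2 normalized tags, and at Hnrnph3, an RNA-binding protein, at 3961 bp upstream with 11 and 12.8. By present gene symbols, 23 of 809 protein-coding genes of the 19 prefixes had an iQNP site within 1 kb (2.84%, 1.81 to 4.24), beside 338 of 23148 protein-coding genes in all (1.46%, 1.31 to 1.62). Predicted copies of ribosomal protein genes are among the 809.

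As a group, the 22 sites had a median of 12.1 normalized tags, with a range from 4.83 to 54.8 for the mean of both antibodies. The median over the other 322 iQNP sites within 1 kb of a TSS was 17.7. Split by whether a TAP site lay within 50 bp, their median was 32.6 for the 113 with one and 12.2 for the 209 without one. The members thus lay close to the promoter sites that were called in iQNP alone.

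Fold over input gave a different picture. The members had a median of 6.96-fold (range 4.26 to 41.2), while the other sites within 1 kb without a TAP site had 11.3-fold and those with one 31.3-fold. Scaled input tags had a median of 4.38 at the members, 3.40 at each of these 2 groups of other sites and 2.90 over all iQNP sites. The part of the input in the lower fold was not tested. A fold of at least 8 with both antibodies was reached at 7 of the 22 sites, beside 118 of the 209 other sites without a TAP site.

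The sites lay close to and mostly just upstream of the start. Of the 22, 20 were upstream, 13 were within 100 bp of the TSS, and 16 were between 30 and 150 bp upstream (72.7%, 49.8 to 89.3). The 10 sites at cytosolic ribosomal protein genes were all upstream. Of the other sites within 1 kb, 82 of 209 without a TAP site (39.2%, 32.6 to 46.2) and 12 of 113 with one (10.6%, 5.61 to 17.8) were between 30 and 150 bp upstream. The intervals cover counting error only, and neighbouring promoters are not independent draws.

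**Figure D2:**
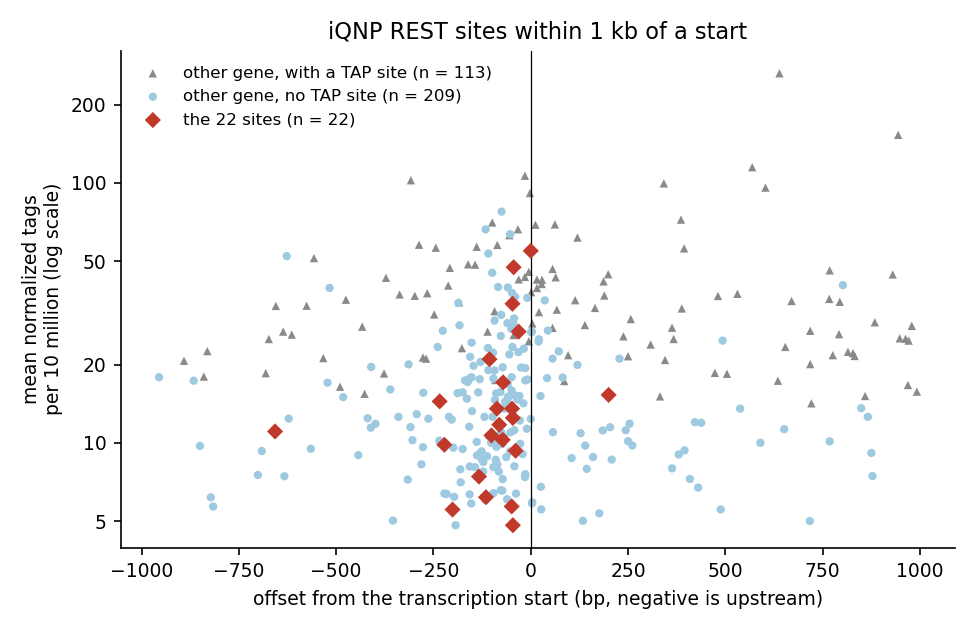
Mean normalized tags of both antibodies (log scale) against the offset of the site from the TSS for all iQNP sites within 1 kb, with 22 members as diamonds, 209 other sites without a TAP site as circles and 113 with one as triangles. The members gather between 31 and 234 bp upstream, with Ddx25 at 657 bp upstream, Sf3a2 at 200 bp downstream and Atp5f1 at the start itself.

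Pairing with TAP was then examined. It largely restates that 0 TAP sites met the rule. A TAP site within 50 bp would mostly have the same nearest gene and be a member itself. No member had a TAP site with its centre within 50 bp, whereas 42.6% of all iQNP sites and 32.8% of those within 1 kb had one. The count of 0 of 22 allows a share of up to 13.6% with 3 counts as the floor. The nearest TAP site to any member was 47.9 kb away, at Sf3a2. Tags of TAP cells at these 22 positions were not analysed here, so that weaker binding in TAP, fewer cells with REST at the promoter and no binding cannot be told apart.

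Pairing depended on tags, and the members were weak on the whole. Among all iQNP sites, 13 of 557 with at most 12 normalized tags had a TAP site, and 11 of the members were in that range. In the class from 12 to 20, 142 of 431 sites (32.9%) had a TAP site and 0 of 6 members did. In the class from 20 to 50, 503 of 673 sites (74.7%) and 77 of 116 other sites within 1 kb (66.4%) had one, and 0 of 4 members, Psmd5, Rps28, Rps19 and Rpl26, did. Above 50, 98 of 114 sites had one and Atp5f1 did not. The lack of a TAP site was not particular to the members. Of 218 protein-coding genes with CTCGCGAG in the promoter, 67 had an iQNP site within 1 kb and 0 had a TAP site. Of these 67, 52 were genes of other sites.

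The weakest TAP site had a mean of 5.30 normalized tags, and the median over all TAP sites was 12.6. Whether the members would have been listed in TAP at their iQNP level was not tested. Over the members' whole range of tags, 675 of 1681 iQNP sites (40.2%, 37.8 to 42.5) and 93 of 299 other sites within 1 kb (31.1%, 25.9 to 36.7) had a TAP site. With 1 library per antibody and condition, no test of the difference was made.

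**Figure D3:**
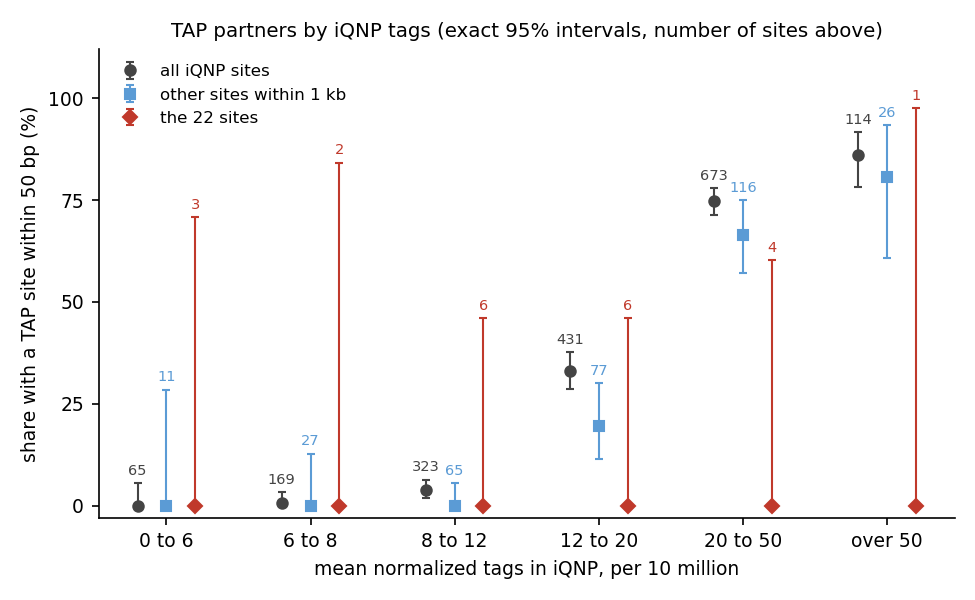
Share of iQNP sites (%) with a TAP site within 50 bp, by class of mean normalized tags in iQNP, for all iQNP sites, other sites within 1 kb and the 22 members, with exact 95% intervals and the number of sites above each. The share over all sites climbs from 0 of 65 in the lowest class to 98 of 114 in the highest, while no class of members holds a TAP site.

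The 2 antibodies gave a measure that the rule did not use. Over all 1775 iQNP sites the commercial antibody had more normalized tags than the homemade mix at 1479 sites, and the log2 ratio of commercial to homemade had a median of 0.40. At the members the order was turned, with more tags for the homemade antibodies at 15 of 22 sites and a median log2 ratio of −0.22. The exact interval for counting error, taken from the total tags of each site, left out equal tags in favour of the commercial antibody at 0 of the 22 sites, against 33.5% of all iQNP sites. It did so in favour of the homemade antibodies at 4 of the 22 sites, against 1.75% of all iQNP sites. Among the 209 other sites within 1 kb without a TAP site, these shares were 8.13% for the commercial and 8.61% for the homemade antibodies.

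The 4 sites were at Nop14, with a log2 ratio of −1.04 (−1.82 to −0.30), Npm1 with −0.71 (−1.42 to −0.02), Atp5f1 with −0.39 (−0.70 to −0.04) and Psmd5 with −0.39 (−0.72 to −0.01). The last 3 intervals ended close to equality. The 10 cytosolic ribosomal protein sites were evenly split, with more commercial tags at 5 and a median log2 ratio of 0.00. Among the other sites within 1 kb, those without a TAP site had a median log2 ratio of −0.11 and those with one 0.60, so that the members resembled the former. With 1 library per antibody, antibody and library cannot be told apart.

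**Figure D4:**
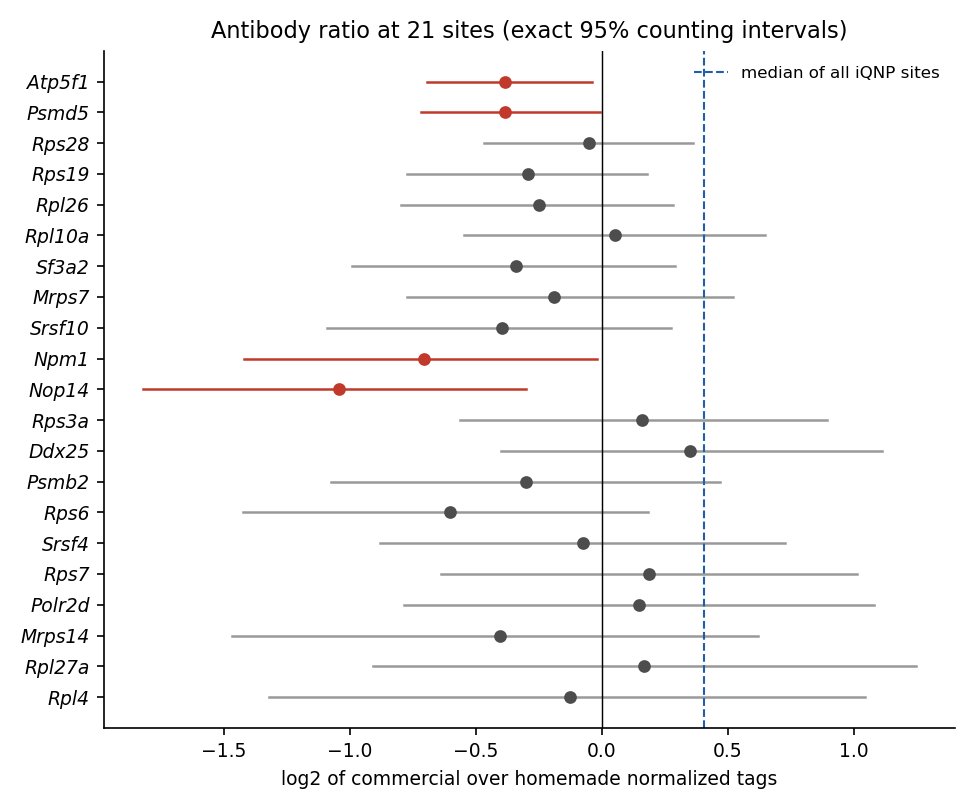
Log2 ratio of commercial to homemade normalized tags at 21 of the 22 sites in iQNP cells, with exact 95% intervals from the tag counts of 1 library per antibody. The intervals of Atp5f1, Psmd5, Npm1 and Nop14 (in red) lie below 0, and the dashed line marks the median of 0.40 over all iQNP sites.

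The focus of the sites was ordinary. The focus ratio, the fraction of tags placed on the expected side of the centre on each strand, had a median of 0.860 at the members and 0.867 over all iQNP sites. The weak sites at Rpl27a and Rpl4 had lower ratios, with a mean of 0.710 at each. The fold over the local background, taken around each site in the ChIP library itself, had a median of 12.2 at the members and 13.4 at the other sites within 1 kb without a TAP site. It was higher over all iQNP sites, at 21.2, and at the other sites within 1 kb with a TAP site, at 33.5.

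The RE1 element was not found in the promoters of the members. RE1 was searched as TTCAGCACC, 2 letters of any kind and GGACAGCGC with up to 4 mismatches of 18, on both strands of the 300 bases from 250 upstream of a RefSeq start to 50 downstream. None of 21 member promoters held such a match, and their closest runs had from 6 to 9 mismatches. At 2 of the 21, Ddx25 and Sf3a2, the site itself lay outside this window. Of all protein-coding genes with a promoter sequence, 127 of 18999 (0.668%) held a match, as did 5 of the 177 genes of other sites without a TAP site (2.82%). The left part alone, with up to 1 mismatch, was in 0 of the 21 promoters against 8.63% of all, and the right part was in 2, Mrps7 and Rps3a, against 10.9%. A count of 0 of 21 allows a share of up to 14.3% with 3 counts as the floor. This is above the shares of 0.668%, 2.82% and 8.63%, so the 0 counts do not set the members apart from those groups. Of the genes of other sites with a TAP site, 80 of 111 had a promoter sequence. Among these 80, 9 held an RE1-like match (11.25%) and 25 the left part (31.25%). Where the site lay within the window, 8 of 23 genes of this group held an RE1-like match (34.8%, 16.4 to 57.3). The count for the members was then 0 of 19 (0 to 17.6). These windows are from GRCr8 and the sites from rn4, and no match says only that the letters were not in the window.

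Of the motifs searched, the GFX core was the one most often found beyond its share in all promoters. This motif was not chosen independently of these data. The paper's own motif search had reported GFX at unique iQNP targets, which include Npm1, Rps6 and Rpl4. A high share at the members is therefore not separate support. CTCGCGAG reads alike on both strands. It occurred in 15 of 21 member promoters (71.4%, 47.8 to 88.7), in 52 of 177 promoters of other sites without a TAP site (29.4%, 22.8 to 36.7) and in 218 of 18999 protein-coding promoters (1.15%, 1.00 to 1.31). Many of the other sites lay outside the searched window. Where the site lay within it, the core was in 15 of 19 member promoters (78.9%, 54.4 to 93.9). The count for the other sites without a TAP site was then 51 of 118 (43.2%, 34.1 to 52.7). Of the genes of other sites with a TAP site, 80 of 111 had a promoter sequence, a share of 72.1% against 85.1% for those without a TAP site. The core was in 0 of these 80 (0 to 4.51). This count is incomplete, because the genes of that group without a sequence were not searched. CpG content was also higher at the members, with a median observed over expected CpG of 0.939 against 0.545 over protein-coding promoters. The like groups were closer, with 0.876 at the other sites without a TAP site and 0.905 at cytosolic ribosomal protein genes without a site. Among the 6147 protein-coding promoters with a ratio of at least 0.75, 176 held the core (2.86%, 2.46 to 3.31), and among the 19 member promoters with such a ratio, 14 did.

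The converse count was also made. Of the 218 protein-coding genes with CTCGCGAG in the promoter, 67 had an iQNP site within 1 kb (30.7%, 24.7 to 37.3), while 211 of the 18781 genes without it had an iQNP site (1.12%, 0.978 to 1.28). A TAP site was at 0 of the 218 and at 83 of the 18781. Within the cytosolic ribosome, 62 of 77 genes had a promoter sequence. Of these, 9 held the core, and 8 of the 9 had an iQNP site, the exception being Rpl17. Of the 53 without the core, 1 had a site, Rps3a.

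The matches lay near the sites, as far as the 2 annotations allow a comparison. The centre of the match was at −51 bp at Npm1, where the site was at −48 bp, at −72 bp at Rps6, where the site was at −72 bp, and at −97 bp at Psmb2, where the site was at −101 bp. Over the 15 genes the median gap between the offsets was 24 bp, with 12 of 15 within 50 bp. The others were Rpl26, with a gap of 85 bp, Srsf10, with 102 bp, and Rpl4, whose only match was 243 bp upstream while its site was 46 bp upstream. Where a gene had 2 matches, at Atp5f1, Psmd5 and Rps19, the match closest to the site was taken. The searched window lay near the start, as did most of the sites, and no expected gap was computed. Since the starts of the 2 builds need not be the same base, these gaps are approximate.

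**Figure D5:**
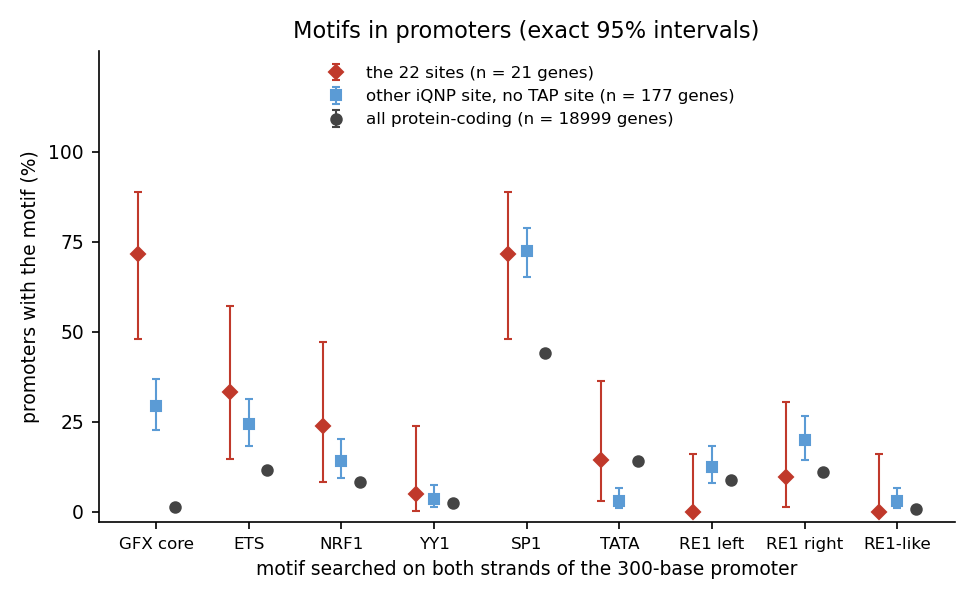
Share of promoters (%) that hold each motif for the 21 member genes with a sequence, 177 genes of other iQNP sites without a TAP site and 18999 protein-coding genes, with exact 95% intervals. The GFX core stands at 71.4%, 29.4% and 1.15% in the 3 groups, and the RE1-like match is at 0 in the members. Genes whose site lay outside the searched window are included.

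Other motifs differed less. The letters CCGGAAG, bound by ETS factors, were in 7 member promoters (33.3%, 14.6 to 57.0) against 11.6% of protein-coding promoters. They were in 24.3% of the promoters of other sites without a TAP site and in 30.2% of cytosolic ribosomal protein genes without a site. NRF1, searched as GCGCNTGCG, was in 5 (23.8%, 8.22 to 47.2) against 8.24%, and in 14.1% of the promoters of other sites without a TAP site. GGGCGG, bound by SP1, was in 15 (71.4%) against 44.1%, and in 72.3% of the promoters of other sites without a TAP site. TATAAA was in 3 (14.3%) against 14.0%, YY1, searched as AAGATGGCG, was in 1, Psmd5, against 2.33%, and GFY, searched as ACTACAATT, was in 0 against 0.537%. All were searched on both strands, and a match describes letters, not a bound factor.

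Messenger RNAs of ribosomal proteins usually begin within a run of pyrimidines. The run of C and T letters across the RefSeq start was 20 bases at Rpl27a, 14 at Rpl4, 11 at Rpl10a and 9 at Rps7. The median was 7 over the 9 ribosomal member genes with a sequence and 0 over all protein-coding promoters. It was 8 over the 53 cytosolic ribosomal protein genes with a sequence but no site, so the run did not set the members apart from these. The RefSeq starts of Rps6, Rps28 and Rpl26 did not fall within such a run.

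The antibody ratio was also read by motif among sites without a TAP site. Of the other sites within 1 kb in this class, the homemade antibodies had more tags at 48 of 52 with the GFX core (92.3%, 81.5 to 97.9) and at 68 of 125 without it (54.4%, 45.3 to 63.3). For the members the counts were 12 of 15 with the core (80.0%, 51.9 to 95.7) and 3 of 6 without it (50%, 11.8 to 88.2). The intervals of the members overlap, and no test of the difference was made.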

How the data were processed

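The ChIP-seq of REST covered HCN cells in iQNP and TAP conditions, with 2 ChIP libraries and 1 input per condition. The authors aligned reads to rn4 with Bowtie2, called peaks with HOMER (Poisson p-value limit 1e-04) and kept peaks called with both antibodies. Total tags are counts as deposited. Normalized tags, a signal, were scaled by the authors to 10000000 tags per library, as were the deposited input tags to the ChIP library. The deposited fold is a ratio over the scaled input, the p-value tests that fold, the focus ratio is a fraction, and the deposited peak score of findPeaks was not used further. Nearest genes and offsets came from the authors' annotation, joined by peak name. It repeats 1 row in each condition, which was dropped.

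Depth was computed from total and normalized tags (25.2 to 29.8 in units of 1000000 tags). An iQNP and a TAP site formed a pair when at most 50 bp separated their centres, each site in 1 pair only and the closest taken first. Shares have exact (Clopper-Pearson) 95% intervals, tags exact Poisson intervals and antibody ratios conditional binomial intervals, and all cover counting error only. No test was made, since each condition has 1 library per antibody and the members are not replicates. RefSeq gene and promoter tables (GRCr8) gave gene counts and sequences, and 21 of 22 members matched. A gene held a motif when any of its listed promoters did. Python 3.11.15 with numpy 2.4.6, pandas 2.3.3 and scipy 1.17.1 was used, and the motif search, pairing and intervals were tested on simulated data.

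Of the members, 21 are named, and 1 is counted in the totals but not reported here by name or value. Full values are given for the 3 with the most tags, for those named among the 3 with the fewest and for Npm1, Rps6 and Rpl4, and other genes are named where they share a start. The members, prefixes and lists were chosen with earlier results of these data known. The counts of the GFX core by gene, by CpG content, within the cytosolic ribosome and by antibody were added after the promoters were seen. Gene expression data were not analysed here.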

Additional observations from a re-analysis of the deposited data

How the results depend on the processing

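Of 28 alternatives over 11 results, 23 left the value within its limits, 5 moved it and 0 reversed it. Asking for an 8-fold or larger excess over input in both libraries left 7 of the 22 sites in iQNP, the Rps and Rpl names alone gave 10, and other distances to the TSS gave from 18 to 25. The number of TAP sites and of members with a TAP site was 0 with each distance tried. The share of iQNP sites within 1 kb with a TAP site, 32.8%, was 24.05% for sites labelled as promoters. The median log2 tags of the members were lower than those of the other sites within 1 kb by a difference of −0.55, which was −1.27 in fold over input and −0.011 against the other sites without a TAP site. With either antibody alone this difference ranged from −0.71 to −0.26, the median normalized tags of the members from 11 to 13.9, and their median fold over input from 6.53 to 7.55. An RE1-like match was in 0 member promoters with up to 3 or 5 mismatches. Chosen after seeing the data, the GFX core was in 15 promoters with the first listed start of each gene alone and, with 1 mismatch allowed, in 19, against 10.9% of protein-coding promoters. No paired analysis was possible because the results come from no test and no member had a TAP site. The weakest sites rest on fewer than 20 tags per library, so their order is not resolved.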
